A study of Rattus norvegicus with 192 samples.

Results

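The cytosolic ribosome is built from ribosomal RNA and a set of proteins encoded by the Rps (small subunit) and Rpl (large subunit) genes. These genes were followed across RNA-seq libraries of the rat nucleus accumbens core, which lies in the ventral striatum and consists mostly of medium spiny neurons. They were chosen by symbol (Rps or Rpl with a number and at most an a or x after it, together with Rplp0, Rplp1, Rplp2 and Rpsa). The symbols of 77 genes matched, 2 of these were set aside, and the remaining 75 genes (30 of the small and 45 of the large subunit) out of 38354 in the table are called members below. All 75 had a mean of at least 1 count per 1000000 (CPM) and passed the filter of the comparisons below. The rule reads symbols and no level, though the set was proposed with earlier results of these data known.

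Each library holds polyA RNA and was taken as 1 outbred rat, with no treatment, sex, age or date in the labels, so libraries were grouped by their label. The table holds 159 of 192 labelled libraries, and the 147 with Drd1, the dopamine D1 receptor of medium spiny neurons, at 100 CPM or more were kept. Of these, 12 had an E21 identifier that the submitters had assigned from the genotype in place of an earlier label (corrected E21), 76 had an E21 identifier with no correction (E21) and 56 had an all-digit identifier (numeric). The other 3 kept libraries belong to label groups of 2 and 1 and were compared with nothing. Nothing in the labels says what the identifier formats stand for, so a difference between them may be one of rats, of dissection or of library preparation, and these cannot be told apart.

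Ribosomal protein mRNAs are known as a coordinated set. Their transcripts start within a run of pyrimidines (the 5′ terminal oligopyrimidine, or TOP, element), through which growth signalling by mTOR sets how much of them is translated. In neurons they are among the short messages found in dendrites and axons as well as in the cell body, and a brain library also holds the ribosomal protein mRNA of glia and vessels. The proteins play distinct parts: Rplp0, Rplp1 and Rplp2 form the stalk that recruits elongation factors, Rpsa sits on the small subunit near the mRNA exit, and Rpl10 joins late in large subunit assembly.

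RefSeq promoter sequences on GRCr8 were found for 61 of the 75 members. The windows below run from 15 bases before the annotated start to 15 bases from it, so that the 16th base is the start, and the longest run of C or T is in capitals. They are shown because most members with a sequence, though not all, had a run of pyrimidines near the start, as counted below. The first 5 windows have a run that covers the start, in members that moved closely with the others (Rps23, Rpl10, Rplp1) or did not (Rpl12, Rpl37).
Rps23, chr2:23814502-23814531, plus strand: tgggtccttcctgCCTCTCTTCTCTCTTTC
Rpl10, chrX:157205835-157205864, plus strand: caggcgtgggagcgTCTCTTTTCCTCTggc
Rplp1, chr8:71290858-71290887, minus strand: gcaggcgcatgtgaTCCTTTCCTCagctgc
Rpl12, chr3:36661925-36661954, plus strand: ggagcaacatccgTCTTTTCggctttcggt
Rpl37, chr2:55942930-55942959, plus strand: tggtaggcgtaCTTTCTCTTCCggtctctt
Rpl21, chr12:13386139-13386168, minus strand: TTCCTTTCCgccggggcagccatcttccag
Rpl41, chr7:1563483-1563512, minus strand: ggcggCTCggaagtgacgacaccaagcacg

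A run of at least 6 pyrimidines lay in the window of 49 of the 61 members (80.3%), against 28.3% of all 33469 promoters in the same table. The median length of the longest run was 10 bases in members and 4 bases over all promoters. The start base itself was C in 33 of the 61 members (54.1%) and in 24.1% of all promoters. The letters CTTCCG, the core bound by ETS factors, were found on either strand of the 300-base promoter in 34 of the 61 (55.7%) and in 16.6% of all promoters. AAGATGG, which is bound by YY1, was found on either strand in 9 of the 61 (14.8%) and in 7.01% of all promoters. In Rpl21 the run ended before the annotated start, and in Rpl41, which was among the members closest to the rest in numeric libraries, the longest run was 3 bases. The RefSeq start equalled the position in the expression table for 26 of the 61 members, and for Rpl37 the positions lay 118 bases apart. A match or its absence describes the letters around an annotated start and no more.

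Total expected counts, in units of 1000000 (M), ran from 14.6 M to 61.2 M per kept library. Corrected E21 libraries averaged 24.1 ± 3.86 M, E21 libraries 22.3 ± 4.93 M and numeric libraries 28.6 ± 9.12 M (SD, n = 12, 76 and 56). The 12 medium spiny markers summed to 4812 to 7493 CPM in corrected E21, 4384 to 8414 CPM in E21 and 3511 to 8348 CPM in numeric libraries. Drd1, by which libraries were kept, is 1 of these 12. The 8 cortical neuron markers summed to a median of 663 CPM in corrected E21 libraries, 154 CPM in E21 libraries and 381 CPM in numeric libraries. A group of 10 libraries stood apart from the rest, with a median correlation to other libraries under 0.97 over the 15327 genes tested, against a median of 0.984 over all kept libraries. Of these, 9 carried the E21 label and 1 was outside the 3 label groups. In the farthest of them, an E21 library, members split: Rps29 was at 721 CPM, which is 1.42 log2 units above its usual place among members, and Rpl39 was 1.18 above, while Rpl12 was 2.23 below and Rpl4 was 1.40 below. Results are therefore given with and without these 10 libraries where they change, a choice made after the values were seen.

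Ribosomal protein mRNA took 1.25% to 3.00% of the counts of a kept library, and the highest library held 2.39 times the summed level of the lowest. The 75 members summed to 14978 to 19621 CPM in corrected E21 libraries (median 16721), 12525 to 29950 CPM in E21 libraries (median 16320) and 12970 to 26814 CPM in numeric libraries (median 16742). The corrected E21 range lay inside the numeric range, which lay inside the E21 range, and the medians of the 3 groups lay close together. In bulk tissue, fewer cells of a type and less RNA per cell cannot be told apart, and this holds for every level given here.

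**Figure D1:**
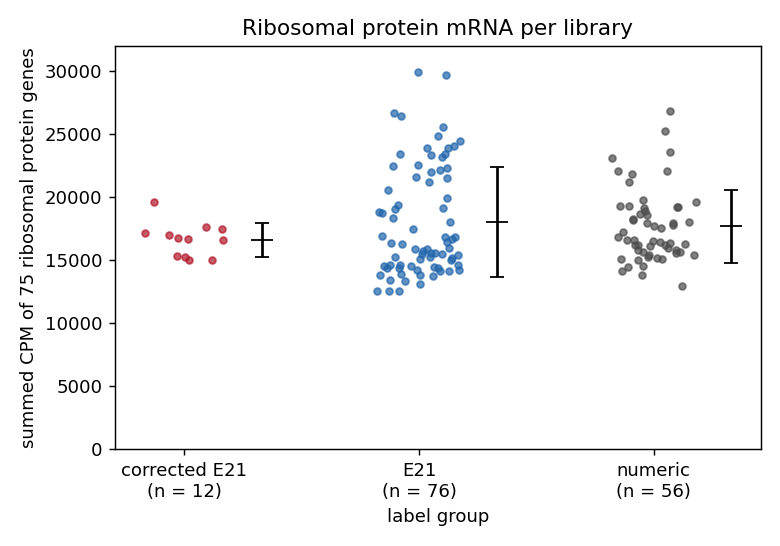
Summed level of the 75 ribosomal protein genes in each library (points, CPM, linear axis from 0) by label group, with the mean and SD to the right of each group. The 12 corrected E21 libraries lie between 14978 and 19621 CPM, inside the range of the other groups.

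Members varied more between libraries than most genes did. The SD of log2(CPM + 1) over the 147 kept libraries had a median of 0.307 over members and 0.237 over all genes tested, and 2 of the 75 members lay below the median of all genes. Without the 10 libraries that stood apart the medians were 0.286 and 0.212. By group, the median SD of members was 0.157 in corrected E21, 0.354 in E21 and 0.242 in numeric libraries, and 74 of the 75 members had a larger SD in E21 than in numeric libraries.

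The lowest SD belonged to Rpl3 (0.181), a core protein near the peptidyl transferase centre, followed by Rpl4 (0.231), Rpl8 (0.237), Rpl15 (0.245) and Rpl5 (0.245), all of the large subunit. Rpl3 had a median of 447 CPM in corrected E21 libraries (426 to 491), 463 CPM in E21 libraries (324 to 725) and 466 CPM in numeric libraries (382 to 603). The highest SD belonged to Rpl37 (1.10), Rps25 (0.564), Rpl12 (0.533), Rps29 (0.469), Rpl36 (0.424), Rps16 (0.405), Rpl39 (0.402) and Rps28 (0.402). No member fell into separate levels: the widest gap in the sorted values of any member was 0.189 log2 units.

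Most members rose and fell together from rat to rat. The mean correlation between pairs of members was 0.523 in corrected E21, 0.796 in E21 and 0.778 in numeric libraries, while the mean over all pairs of tested genes was 0.00576, 0.0307 and 0.0145 in the same groups. The first principal component held 59.2%, 81.7% and 80.4% of the members' variance in these groups. Members spread over 19 chromosomes, and all genes of a library share the total count by which that library was scaled. The subunits did not part: in E21 libraries the mean correlation was 0.788 within the small subunit, 0.799 within the large subunit and 0.797 between them, and in numeric libraries it was 0.748, 0.795 and 0.774. Without the libraries that stood apart the E21 value was 0.847. After the microglia marker score was removed, it was 0.636 in E21 and 0.675 in numeric libraries.

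**Figure D2:**
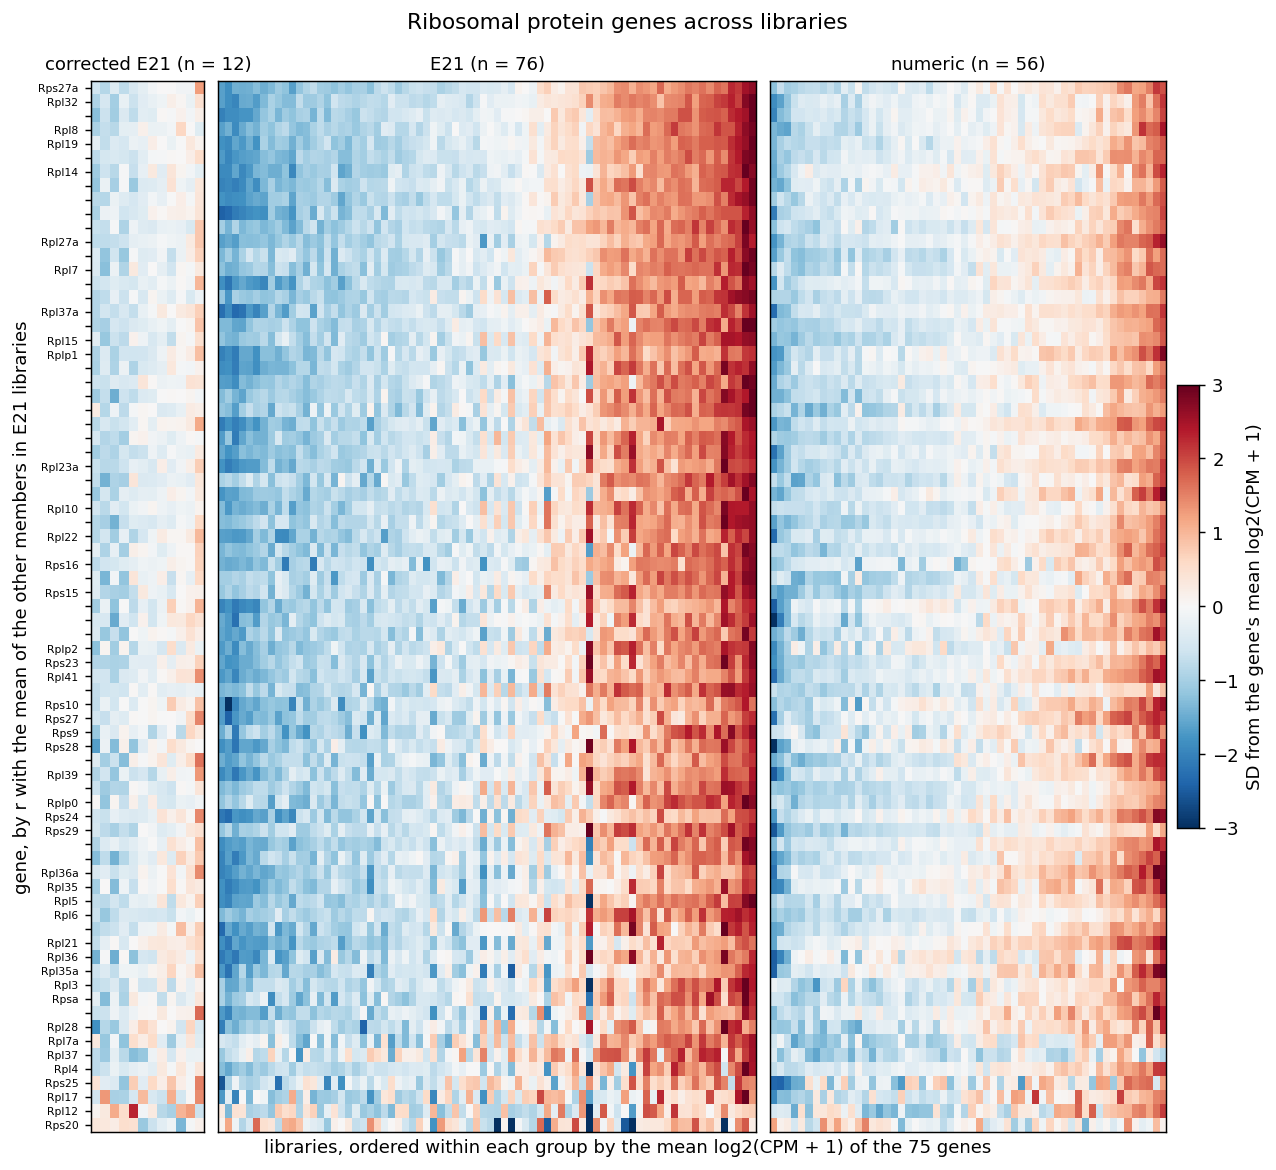
Each row is 1 of the 75 genes and each column 1 library, ordered within its label group by the mean level of the 75 genes, rows named in the text carry their symbol, and colour gives the number of SD from the gene's mean log2(CPM + 1). Most rows change from blue to red together, the bottom rows (Rps20, Rpl12, Rpl17, Rps25) do not, and a few E21 columns with mixed colours are libraries that stood apart.

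Members closest to the rest were measured by the correlation with the mean of the other members. In E21 libraries these included Rps27a (0.986), Rpl32 (0.986), Rpl8 (0.979) and Rpl19 (0.977), and in numeric libraries Rpl27a (0.992), Rpl23a (0.980), Rpl41 (0.977), Rps23 (0.977) and Rpl37a (0.975). Rps27a, which is made as a fusion with ubiquitin and then cleaved, had a median of 272 CPM in corrected E21 libraries (233 to 385), 254 CPM in E21 libraries (184 to 539) and 285 CPM in numeric libraries (213 to 472). These ranges overlapped almost fully.

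The members farthest from the rest were Rps20, Rpl12, Rpl17, Rps25 and Rpl4 in E21 libraries and Rps20, Rpl37, Rps25, Rpl12 and Rpl36 in numeric libraries. Rps20 had a correlation with the mean of the others of 0.055 in E21 and -0.104 in numeric libraries, and Rpl12, a protein of the stalk base, had 0.347 and 0.637. Without the libraries that stood apart the E21 values were 0.266 for Rps20, 0.452 for Rpl12, 0.643 for Rpl17 and 0.661 for Rps25, and Rpl4 had 0.948, where it had 0.693 with them. Rpl12 ranged from 53.05 to 179 CPM in corrected E21 libraries (median 84.4), from 17.7 to 169 CPM in E21 libraries (median 74.8) and from 42.3 to 167 CPM in numeric libraries (median 80.7). Its lowest value was in the farthest library named above.

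Some members far from the rest shared their level with copies. Ribosomal protein genes have many processed copies in mammalian genomes, and pseudoalignment can divide reads between a gene and a near-identical copy. By symbol, 64 members had at least 1 of 235 copies in the table, and 7 of them held under 90% of the summed level of member and copies: Rps20 (3.12%), Rpl37 (6.40%), Rpl36a (58.7%), Rpl22 (67.7%), Rpl36 (74.7%), Rpl7 (78.2%) and Rplp2 (89.8%). The copies counted for Rpl7 and Rpl22, Rpl7l1 and Rpl22l1, are genes in their own right in mouse and human.

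Rps20 (chromosome 5, 21616687 to 21618068) averaged 4.14 ± 0.822 CPM in corrected E21, 4.52 ± 1.64 CPM in E21 and 4.45 ± 1.02 CPM in numeric libraries (SD, n = 12, 76 and 56). Rps20-ps11, annotated as a transcribed pseudogene elsewhere on the same chromosome (160825066 to 160825584), averaged 132 ± 18.4, 138 ± 38.9 and 139 ± 28.6 CPM in the same groups. The correlation with the mean of the members was 0.956 in E21 and 0.973 in numeric libraries for Rps20-ps11, so the level that moved with the other members stood under the name of the copy.

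Rpl37, a zinc-binding protein of the large subunit (chromosome 2, 55942827 to 55944905), ranged from 2.5 to 9.9 CPM in corrected E21 libraries (median 5.9), from 1.4 to 60.8 CPM in E21 libraries (median 10.7) and from 1.8 to 21.5 CPM in numeric libraries (median 4.7). Its copy Rpl37l1 on chromosome 10 (61532037 to 61532395) averaged 162 ± 21.8 CPM in corrected E21, 167 ± 50.1 CPM in E21 and 177 ± 37.2 CPM in numeric libraries. RefSeq lists Rpl37 as another name of Rpl37l1. Rpl37l1 had a correlation with the member mean of 0.861 in E21 and 0.938 in numeric libraries, where Rpl37 had 0.729 and 0.380 with the mean of the others.

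E21 libraries were first set against numeric libraries, with limma's moderated test on log2(CPM + 1), two-sided and adjusted over all 15327 genes. Of the 75 members, 14 (18.7%) had an adjusted p under 0.05, where 37.6% of all genes tested did. Of these, 7 were higher (background 11.8%) and 7 were lower in E21 libraries (background 25.8%). With median-of-ratios scaling the split was 16 higher and 4 lower (background 36.5%), and Rpl35 and Rps27 were among the falls that lost their calls. The median log2 change over members was 0.0018, against -0.0294 over all genes, and 38 of the 75 changes were above 0. This balance depended on the setting. Without the 10 libraries that stood apart the medians were -0.0359 and -0.0165, with 24 of the 75 changes above 0. With the total count in the model they were -0.043 and -0.0275, with 21 above 0. With median-of-ratios scaling they were 0.0326 and -0.0018, with 48 above 0. All 8 cortical markers were lower in E21 libraries, by a median of -0.90 log2 units. Of the 12 medium spiny markers 6 were higher (median 0.104), and of 5 markers of neuroblasts and dividing cells 4 were lower (median -0.2331). With the cortical score in the model, 15 members were called (background 41.0%), where Rpl35 lost its call and Rpl10 and Rpl15 gained one. The part of these markers in the members' changes was not tested further.

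Among the falls, Rpl21, Rpl36a, Rps24 and Rpl35a passed the test under 14 of 14 alternatives of scaling, filter, covariates and fit. Rpl21, a large subunit protein, was at 227 to 558 CPM in E21 libraries (median 314), against 255 to 624 CPM in numeric libraries (median 370). The ranges overlapped, and the E21 range lay lower at both ends. The log2 change was -0.24 (SE 0.0488, adjusted p = 4.68e-05), and it was -0.24 without the libraries that stood apart. Rpl36a was at 44.1 to 116 CPM in E21 libraries (median 63.4), against 42.0 to 150.0 CPM in numeric libraries (median 74.2). Its log2 change was -0.23 (SE 0.0578, adjusted p = 0.000933), and it was -0.14 (adjusted p = 0.0309) when its copies were added. Most of both ranges was shared.

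Rps24, a small subunit protein whose human gene is mutated in some families with Diamond-Blackfan anaemia, was at 109 to 290 CPM in E21 libraries (median 167), against 124 to 331 CPM in numeric libraries (median 186). Its log2 change was -0.18 (SE 0.0548, adjusted p = 0.00668). Rpl35a was at 72.04 to 190 CPM in E21 libraries (median 110), against 72.4 to 218 CPM in numeric libraries (median 124), a log2 change of -0.18 (SE 0.0494, adjusted p = 0.00266). Both pairs of ranges overlapped widely. The remaining falls included Rps27 (-0.16) and Rpl35 (-0.14).

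Of the 7 rises, only Rpl37 and Rps29 passed the test without the 10 libraries that stood apart, where 2 members were higher and 8 lower (background 26.1%). Rps29, a small zinc-binding protein of the 40S head, was at 155 to 721 CPM in E21 libraries (median 237), against 108 to 367.6 CPM in numeric libraries (median 222). The E21 group reached higher while its median lay close to the numeric one. The log2 change was 0.30 (SE 0.0799, adjusted p = 0.00199), and 0.19 (adjusted p = 0.0409) without those libraries. It missed the threshold with the total count in the model (adjusted p = 0.0863), where 9 members were called (background 20.1%). The other rises, which included Rps15 (0.15), Rpl6 (0.14) and Rpl7a (0.12), were all lost both without those libraries and with the total count in the model.

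Rpl37 had the largest change of all members, 1.12 log2 units higher in E21 than in numeric libraries (SE 0.168, adjusted p = 1.24e-07), from the low levels given above. Summed with its copies it averaged 188 ± 57.8 CPM in E21 and 187 ± 39.2 CPM in numeric libraries (SD, n = 76 and 56), a log2 change of -0.0165 (adjusted p = 0.860). The call did not carry over to the sum. With copies added, no other called member lost its call and Rpl15 gained one.

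The stalk proteins and Rpsa were not called. Rplp0 was at 290 to 796 CPM in E21 libraries (median 401), against 304 to 578 CPM in numeric libraries (median 388), with a log2 change of 0.10 (95% interval -0.01 to 0.21, adjusted p = 0.132). It did pass the test with median-of-ratios scaling. Rplp1 was at 372.2 to 1068 CPM in E21 libraries (median 565), against 403 to 1222 CPM in numeric libraries (median 624), with a log2 change of -0.08 (95% interval -0.20 to 0.05). Rplp2 had a log2 change of 0.08 (-0.05 to 0.21) and Rpsa one of -0.0019 (-0.10 to 0.10). The 4 intervals all reached across 0.

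With the mean level of all 75 members in the model, 42 members were called, 19 higher and 23 lower. By the same model 43.8% of all genes were called. All 14 calls were among the 42. The mean includes the member tested, and with it in the model the members' changes lie around 0 as a set (median -0.0144). The near-even split of rises and falls is thus built in and is no result about the set. With the microglia marker score in the model instead, 29 were called, 17 higher and 12 lower (background 42.0%). Both alternatives were added after the values were seen.

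**Figure D3:**
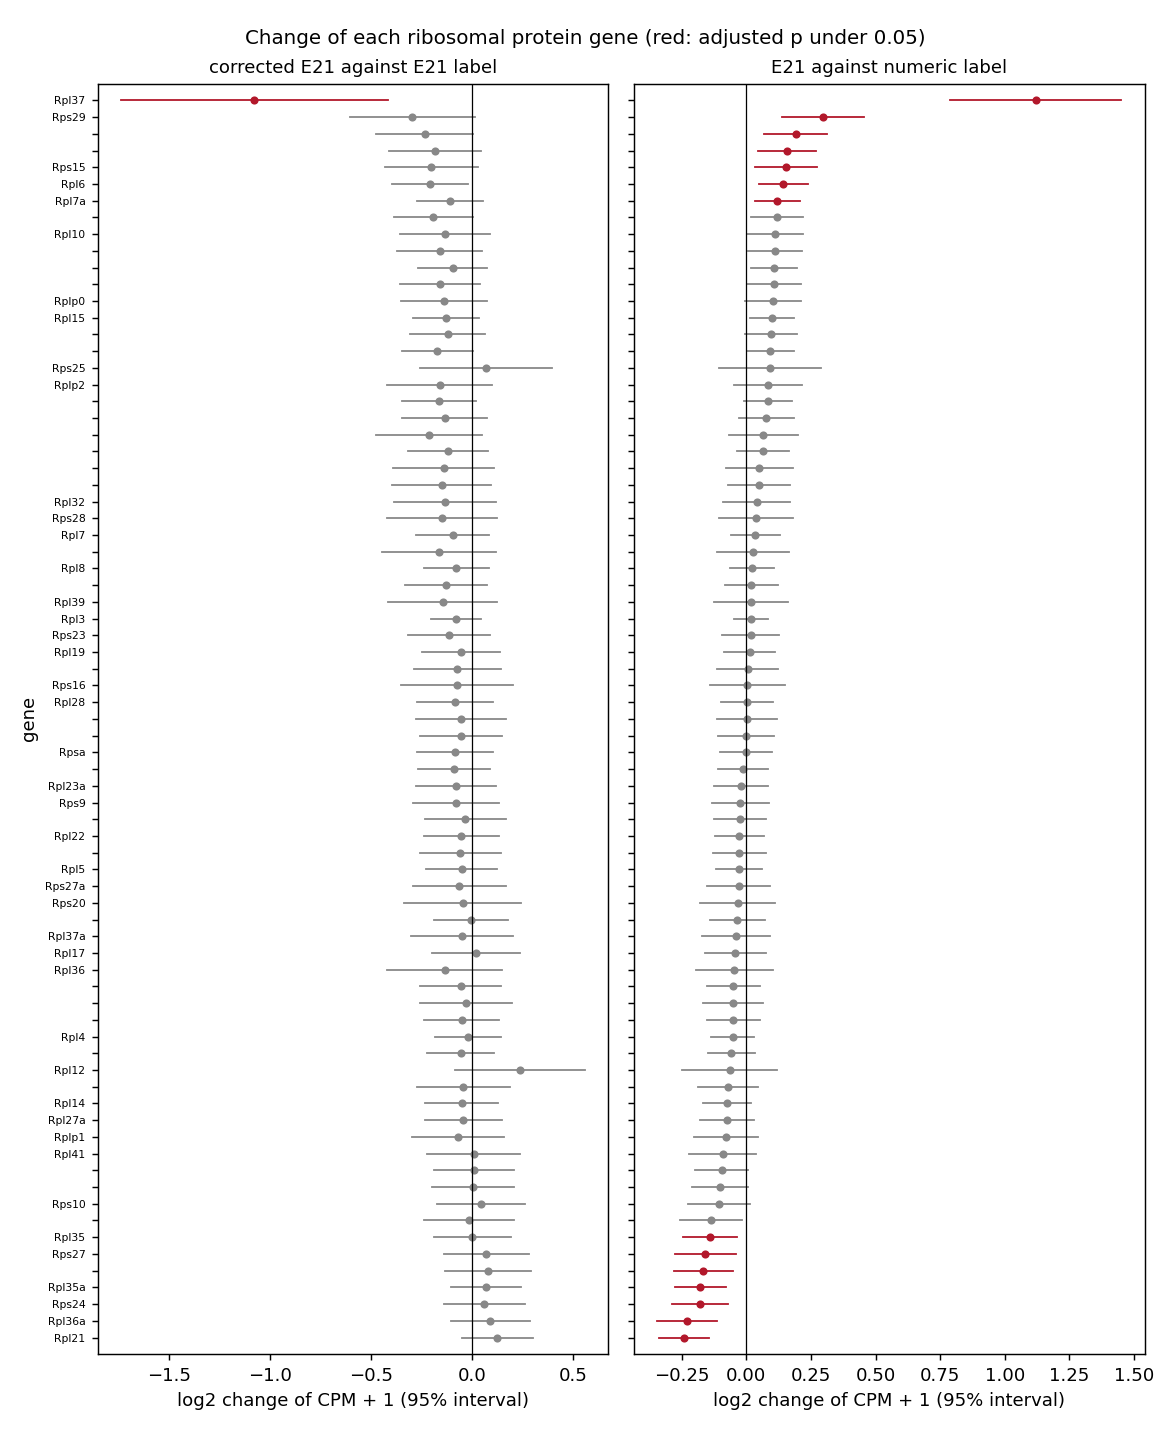
Log2 change of each of the 75 genes (points) with its 95% interval (lines), corrected E21 against E21 libraries on the left and E21 against numeric libraries on the right, red where the adjusted p is under 0.05, with symbols for genes named in the text. On the right 7 genes lie above and 7 below 0 in red, from Rpl37 (1.12) to Rpl21 (-0.24), and on the left Rpl37 (-1.08) is the only red gene.

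Corrected E21 libraries were next set against E21 libraries, which are the same libraries that entered the comparison above. Only Rpl37 was called among the 75 members (1.33%, lower in corrected E21 libraries), where 8.14% of all genes were called, 6.24% higher and 1.89% lower. Its log2 change was -1.08 (SE 0.332, adjusted p = 0.0276). With copies added the change was -0.08 (adjusted p = 0.706), so this call did not carry over to the sum either. Rpl37 was also the 1 member called with median-of-ratios scaling (background 8.01%) and without the libraries that stood apart (background 9.66%). The call was lost with the cortical score in the model, where 0 members were called by limma with 7 at an unadjusted p under 0.05 (background 0.0718%), and also with the cortical, oligodendrocyte and astrocyte scores and with no filter. With the total count in the model 0 were called by limma, with 2 at an unadjusted p under 0.05 (background 6.66%). With the microglia score the 1 member called was Rpl21, which was higher (background 9.55%), and with the mean member level 10 were called (background 11.1%). The median change over members was -0.0764, against 0.0242 over all genes, and 61 of the 75 changes were below 0. With the microglia score in the model the median was 0.0471, against 0.0284 over all genes, and 21 of the 75 changes were below 0. Members move together, so such counts of signs are not 75 separate observations. The 12 corrected libraries also differed in their markers: 7 of 8 cortical markers were higher, with a median of 1.53 log2 units over the list. Of the 12 medium spiny markers 4 were lower (median -0.1742), and the 8 microglia markers had a median of -0.1694 with none called. The part of these markers in the members' lower median was not tested further.

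Against numeric libraries, which also served above, corrected E21 libraries had no member called by limma (background 0.0%), with 1 at an unadjusted p under 0.05, Rpl14 (log2 change -0.13, SE 0.053, adjusted p = 0.618). None was called under any alternative. The median change of members was -0.0803, against 0.0006 over all genes, and 69 of the 75 changes were below 0. With the microglia score in the model the median was 0.0096, against 0.0034 over all genes, and 32 of the 75 changes were below 0. These signs are likewise not separate observations.

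Other parts of the translation machinery were read from lists, whose counts in E21 against numeric libraries stand beside 11.8% of all genes higher and 25.8% lower. Of 22 elongation and initiation factors and other genes with TOP messages, 4 were higher and 2 lower in E21 than in numeric libraries, with a median change of -0.02. Rack1, a small subunit scaffold outside the symbol rule, was higher by 0.23 (SE 0.0548, adjusted p = 0.000613), and the initiation factor gene Eif4b was lower by -0.09 (SE 0.0202, adjusted p = 0.00019). Of 74 tested genes of the mitochondrial ribosome, 15 were higher and 6 lower, among them Mrpl10 (0.17) and Mrpl47 (-0.16). Of 32 genes of ribosome biogenesis, 4 were higher and 14 lower, with a median of -0.06. They include Ncl, which encodes the nucleolar protein nucleolin (-0.22, SE 0.0336, adjusted p = 2.49e-07), and Nop56 of the box C/D small nucleolar particle (-0.14, SE 0.0218, adjusted p = 1.59e-07). In corrected E21 against E21 libraries, 2 of the 32 biogenesis genes were higher and 1 lower (background 6.24% and 1.89%), with Rrp1 at 0.17, Nop56 at 0.15 and Fbl at -0.22.

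Which other genes moved with the members was described within each group by the correlation with the mean of the 75. Among the closest outside the set was Fau (0.967 in E21, 0.958 in numeric libraries), which encodes a ribosomal protein fused to a ubiquitin-like protein and lies outside the symbol rule. Short genes of the respiratory chain and other small housekeeping genes were close as well, such as Ndufa6 (0.930 and 0.915), Pfdn5 (0.928 and 0.907) and Cox6c (0.902 and 0.903). Among the genes that moved the opposite way were Synj1, a synaptic lipid phosphatase (-0.897 and -0.923), Wdr7 (-0.895 and -0.896) and the sodium channel gene Scn2a (-0.931 and -0.871).

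The correlation varied with gene span. Over the 2299 tested genes spanning more than 100 kb, the median correlation with the members was -0.198 in corrected E21, -0.471 in E21 and -0.273 in numeric libraries. Over the 435 genes under 2 kb it was 0.287, 0.437 and 0.284. Across the 15252 tested genes that are not members, Spearman's rho between span and this correlation was -0.296, -0.452 and -0.450. These genes share libraries and are not independent replicates. Members themselves are short, with a median span of 3.13 kb against 24.3 kb for the other tested genes.

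By list, the 32 genes of ribosome biogenesis had a median correlation with the members of -0.280 in E21 and 0.107 in numeric libraries. The 37 short housekeeping genes had medians of 0.838 and 0.816, each of the 37 being above 0. Scores of 18 lists and the total count were set against the member mean in both groups, 38 relations in all, and are given as descriptions with no p. Among the highest r were those of the list of factors with TOP messages (0.934 in E21, 0.891 in numeric libraries), short housekeeping genes (0.891 and 0.908) and the mitochondrial ribosome (0.860 and 0.692). The microglia score had r = 0.794 and rho = 0.784 with the member mean in E21 libraries and r = 0.704 and rho = 0.695 in numeric libraries, and r was 0.805 and 0.661 without the 2 farthest libraries. The astrocyte score had r = 0.624 in E21 libraries, 0.779 without those that stood apart, and 0.418 in numeric libraries. The oligodendrocyte score had 0.502 in E21 and 0.109 in numeric libraries, and the neuroblast and dividing cell score had -0.44 and -0.26. The red blood cell score had r = 0.690 and rho = 0.677 in E21 and r = 0.422 and rho = 0.349 in numeric libraries, and r was 0.674 and 0.322 without the 2 farthest libraries. The medium spiny score had r = -0.558 and rho = -0.608 in E21 libraries, with r = -0.649 without the 2 farthest, and r = -0.079 and rho = -0.108 in numeric libraries. Its 12 genes were uneven in E21 libraries, from Pde10a (-0.764) and Drd1 (-0.732) to Tac1 (0.253). There Drd2 (-0.093), Penk (-0.070), Adora2a (-0.022) and Ppp1r1b (0.082) lay close to 0. Of the 12 genes, 2 were above 0 in E21 and 5 in numeric libraries. In the 12 corrected E21 libraries r was 0.453 for the medium spiny score (rho 0.441), with each of its 12 genes above 0, and 0.117 for the microglia score (rho 0.00699). The cortical score had r = 0.081 in E21 and -0.056 in numeric libraries.

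The total expected count moved with the members in E21 libraries, with r = -0.413 and rho = -0.416 and r = -0.409 without the 2 farthest, so that deeper E21 libraries held less ribosomal protein mRNA. In the 12 corrected E21 libraries the values were r = -0.705 and rho = -0.559, and in numeric libraries they were r = 0.188 and rho = 0.254. The summed microglia markers ranged from 326 to 403 CPM in corrected E21, 295 to 675 CPM in E21 and 308 to 605 CPM in numeric libraries. The range was narrowest in corrected E21 and widest in E21 libraries, as were the member sums. A range from lowest to highest tends to widen with the number of libraries, which had the same order (12, 56 and 76), so this match says little. What share of the members' variation came with microglia or with depth was not tested beyond these values.

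**Figure D4:**
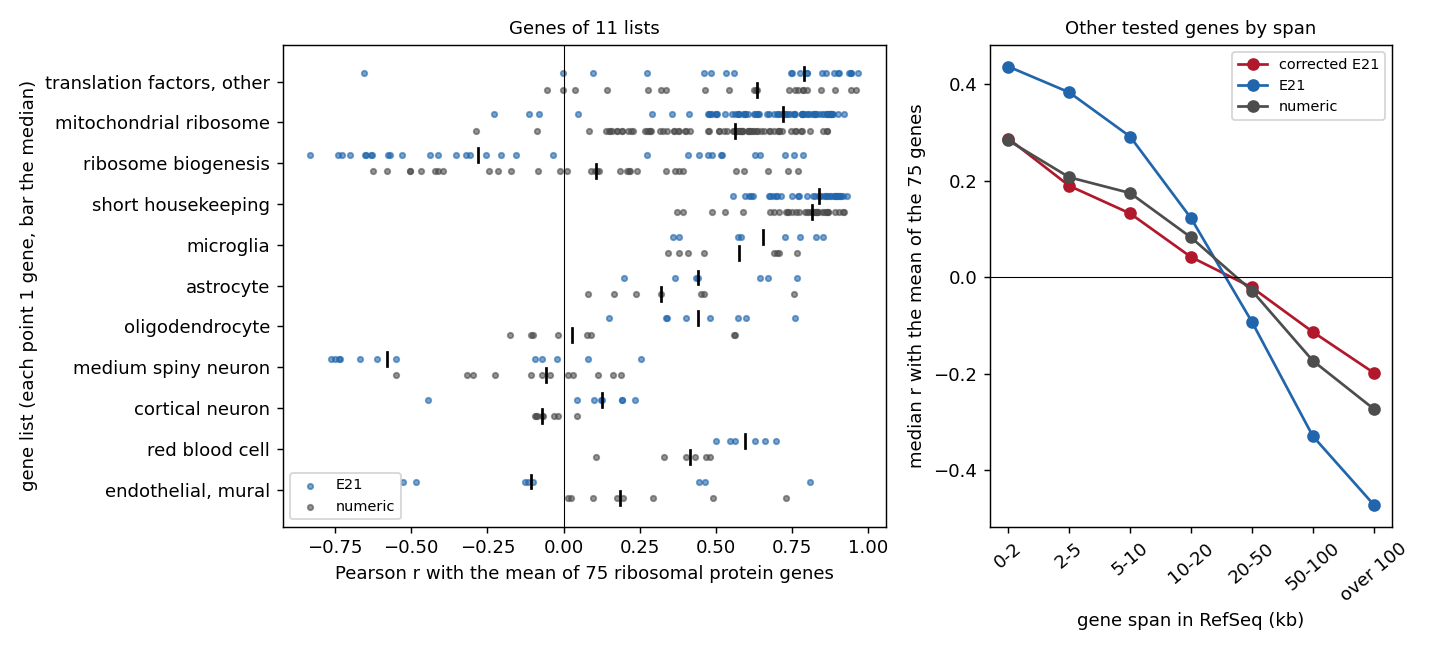
Left, Pearson correlation with the mean of the 75 ribosomal protein genes for each gene of 11 lists (points) and the list's median (bar) in E21 and numeric libraries. Right, median correlation of the other tested genes by RefSeq gene span in each label group, which goes from 0.437 under 2 kb to -0.471 above 100 kb in E21 libraries.

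A few members had variation of their own. After the label group and the mean of the other members were removed, each member was correlated with every other tested gene over 144 libraries, and genes starting within 1 Mb were singled out, a choice made after the values were seen. A member had 31 such neighbours on average, 0.204% of the 15216 genes ranked. Of 2323 pairs of member and neighbour, 1092 had an adjusted permutation p under 0.05, so that a call alone says little about a neighbour. The rank among all genes was read instead. For 5 of the 75 members, the gene of the 15216 with the strongest correlation was a neighbour: Rps25, Rps9, Rpl28, Rps10 and Rps16.

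Rps25, a small subunit protein used by viral and some cellular internal ribosome entry sites, ranged from 82.3 to 238 CPM in corrected E21, 47.6 to 302 CPM in E21 and 50.4 to 259 CPM in numeric libraries, with medians of 142, 127 and 130 CPM. Its strongest partner was Il10ra, the interleukin 10 receptor gene that starts 844 kb away on chromosome 8, at r = -0.782 and rho = -0.785 (p = 1e-05, adjusted p = 5.99e-05 and 8.64e-05, permutation within label groups, 2323 pairs). The correlation was -0.794 without the 2 farthest libraries and -0.824 without the 10 that stood apart. Without removing the mean of the members, it was -0.806 in corrected E21, -0.683 in E21 and -0.811 in numeric libraries. The ranks after Il10ra went to Atp5mg (-0.716), an ATP synthase subunit, and Scn2b (-0.705), a sodium channel beta subunit that starts 692 kb away. Without removing the mean of the members, Atp5mg had -0.175 over the 144 libraries, and Scn2b had -0.785, -0.807 and -0.886 with Rps25 in the 3 groups. Rats with more Rps25 mRNA thus had less Scn2b mRNA in each label group. Rps25 holds 96.0% of the sum with its copies.

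Rpl28 and Syt5, a synaptotagmin gene that starts 237 kb away on chromosome 1, had r = 0.670 and rho = 0.578 (p = 1e-05, adjusted p = 5.99e-05 and 8.64e-05, same test). The value was 0.614 without the 2 farthest libraries and 0.552 without the 10 that stood apart, and 0.423 when only the label group was removed. Rps9 was paired with Pira2, an immunoglobulin-like receptor gene 147 kb away on the same chromosome. Pira2 was cut into 2 parts, 30 libraries at 0.0 to 0.543 CPM and 114 at 1.27 to 8.34 CPM. The cut was set for this pair alone, and the widest gap of Pira2, 0.556 log2 units, was under the 1 unit asked of separated levels. Over all 144 libraries r and rho were both 0.85, which includes the step between the parts. The r was 0.574 when only the label group was removed. With the mean of the other members removed as well, the correlation within the 114 was 0.752 (rho 0.732), and within the 30 it was 0.198 (rho 0.165). Both parts occurred in all 3 label groups.

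The other pairs were weaker. Rps10 and Ilrun, 177 kb apart on chromosome 20, had r = 0.476 (adjusted p = 5.99e-05) but rho = 0.173 (adjusted p = 0.0866, same permutation test), so the relation did not hold by rank. Rps16 and Med29, a Mediator subunit gene 40.3 kb away, had r = -0.468 and rho = -0.381 (adjusted p = 5.99e-05 and 8.64e-05, same permutation test), which was 0.2855 when the mean of the members was left in. No source used here gives the strand of the libraries, so reads of genes that overlap could not be told apart, though none of these pairs starts at the same place.

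**Figure D5:**
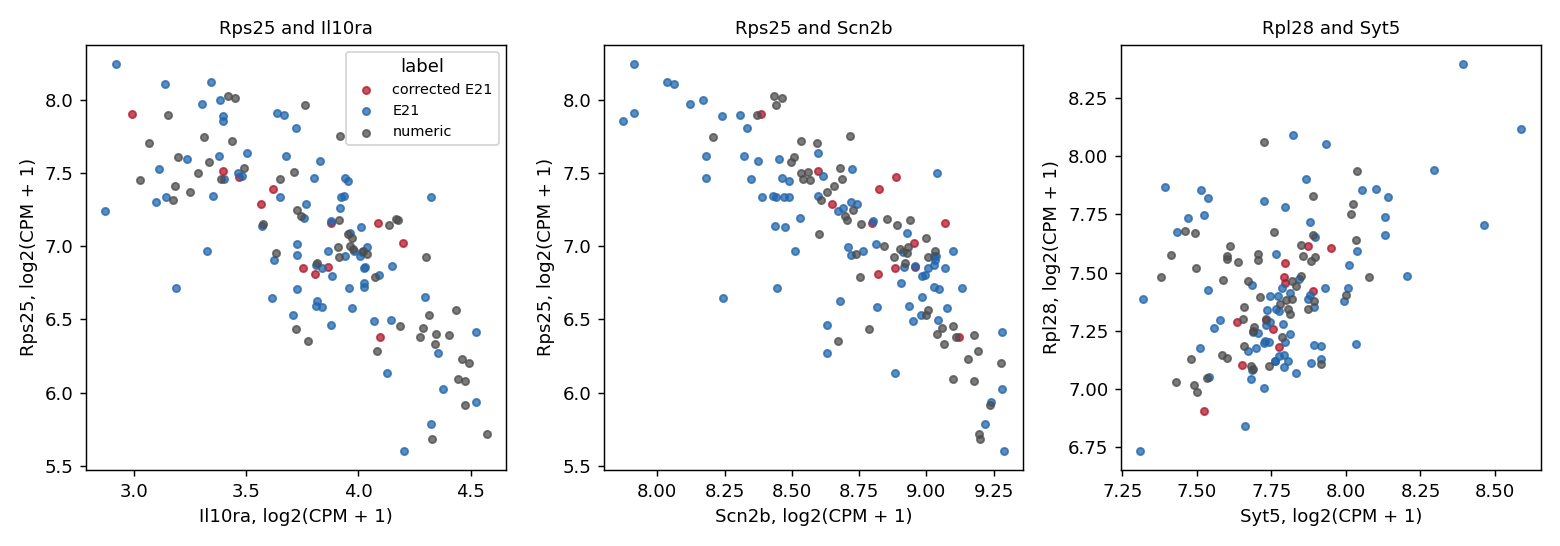
Log2(CPM + 1) of Rps25 against Il10ra (left) and Scn2b (middle) and of Rpl28 against Syt5 (right), each point 1 of 144 libraries, coloured by label group. Rps25 falls as either neighbour rises in all 3 groups (r from -0.683 to -0.886). Rpl28 rises with Syt5, more loosely in E21 (0.426) and numeric libraries (0.364) than in corrected E21 libraries (0.864).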

How the data were processed

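PolyA RNA was measured by RNA-seq, and the submitters' processing notes name kallisto 0.48. The sources used here state neither annotation, gene summing nor strand. Each deposited value is a log2 expected count with 1 added, unscaled, judged from the values alone. Gene positions equal a GRCr8 RefSeq gene end for 38278 of 38278 symbols found there. Expected counts were recovered, divided by each library's total to give CPM (per 1000000), and put on a log2 scale after adding 1. Fold changes on this scale understate the change of low genes. Counts divided among near-identical copies are estimates.

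Genes averaging 1 CPM or more were tested with limma 3.58.1 (R 4.3.3, intensity trend, two-sided, Benjamini-Hochberg over all genes). The script was tested on simulated data. No count test was run, since the values are not whole counts. The members, lists and tests were chosen with earlier results of these data known. Genes named are the largest called changes, the extremes of SD and of correlation, the stalk proteins and Rpsa, members whose call changes with copies, and up to 4 listed genes by p. Some genes that this rule would name are not reported here. Levels per coding length were not computed. Each library was taken as 1 rat, and p-values measure the spread between these libraries. The highest correlation between libraries was 0.994, and none were merged.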

Additional observations from a re-analysis of the deposited data

How the results depend on the processing

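For E21 against numeric libraries, 14 members were called (background 37.6%), against 9 (1 higher, 8 lower) with the total count as covariate (background 20.1%). With the microglia score 29 were called (background 42.0%) and with the mean member level 42 (background 43.8%), both added after the values were seen. For corrected E21 against E21 libraries, 1 was called (background 8.14%), and 10 with the mean member level (background 11.1%). It was 0 with the cortical score (background 0.0718%) and with the total count (background 6.66%). It was also 0 with the cortical, oligodendrocyte and astrocyte scores (6 of 15327 genes called) and with copies added (1244 of 15293 genes called). With no filter it was 0 as well, where 1178 of 34207 genes tested were called. For the other alternatives the cause was not tested. With the microglia score removed, the mean pairwise correlation in E21 libraries was 0.636. The Rpl37 change of 1.12 in E21 libraries was -0.0165 with copies added, where Rpl37 itself makes up 6.40% of the sum. The correlation of Rps16 with Med29, -0.468, was 0.2855 with the label group alone removed. Of the other values, 57 main and 516 further values stayed within the tolerance set for their kind. Of the single-member values, 32 lost the threshold and 4 gained it. The tolerance was a ratio for counts of calls, an SD for medians, spreads and mean correlations, and the sign alone for pairs. For single members it was the sign and the side of the threshold, though a changed sign in an uncalled member also counted as kept. No paired analysis was possible because the labels carry no replicate numbers. Among members, depth limits Rps20 and Rpl37 most, whose lowest values were 0.8 and 1.4 CPM. These members held 3.12% and 6.40% of the sum with their copies, so the division of reads among copies also limits their levels.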

Other observations

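Libraries outside the comparisons held ribosomal protein mRNA within the range of the rest. The 12 libraries with Drd1 under 100 CPM (11 with a numeric and 1 with an E21 label) had a summed member level of 14277 to 18669 CPM, with a median of 16347 CPM. The 2 libraries with an AA1 label were at 19015 and 19303 CPM, and the 1 corrected library of another format was at 21657 CPM.

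Rplp2l2, a copy of the stalk gene Rplp2 by its symbol, spread widely: it was at 4.04 to 34.7 CPM in corrected E21 libraries (median 9.73), 0.224 to 55.7 CPM in E21 libraries (median 3.00) and 4.08 to 79.5 CPM in numeric libraries (median 13.3). Its correlation with the mean of the members was 0.767, -0.227 and 0.454 in these groups. This gene was chosen after its values were seen.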
